A study of Mus musculus with 16 samples.

Results

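The genes of the cytosolic ribosome's own proteins were followed across left ventricles of PKM2 knockout and control mice. The 84 genes were taken from the 55492 rows of the expression table by name: Rpl or Rps, a number, and an optional a, x, l or al, together with Rplp0, Rplp1, Rplp2 and Rpsa. Rows with a -ps suffix, which mark pseudogenes, were left out. RefSeq lists 82 of the 84 as protein coding, Rps4l as a transcribed pseudogene and Rpl6l as a pseudogene. Of the 84 genes, 52 belong by name to the large subunit and 32 to the small subunit.

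RNA sequencing was done on left ventricle samples, labelled as biological replicates, of 16 male C57BL/6 mice, 8-12 weeks old. PKM2-/- mice lack PKM2, the pyruvate kinase isoform encoded by exon 10 of Pkm, in all cells, since the exon was removed in the germline with CMV-Cre and the Cre allele was then bred out. PKM2fl/fl controls carry the same floxed exon intact and no Cre. Each genotype had 2 unoperated mice (baseline), 3 mice taken 3 days after sham surgery and 3 mice taken 3 days after permanent ligation of the left anterior descending artery, which gives a myocardial infarction (MI). The knockout is global, so a change in the ventricle may arise in any of its cells or from outside the heart.

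A ribosome consists of a large and a small subunit, each built of ribosomal RNA and one copy of most of its proteins, and the genes for these proteins are active in nearly every cell. Most of these mRNAs begin with a 5′-terminal oligopyrimidine (TOP) tract, a C followed by more C and T bases, through which mTOR signalling sets how much of the mRNA is translated. Cardiac and skeletal muscle are known for one exception to a fixed set of proteins: in adult striated muscle the ubiquitous Rpl3, a protein near the peptidyl transferase centre, is largely replaced by its paralog Rpl3l.

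Annotated transcript starts were read for the 62 of the 84 genes that had an entry in the RefSeq promoter table (GRCm38.p6). A gene with several annotated starts counted if any of them held the motif, here and over all genes. A window of 30 bases, from 10 before the start to 20 from it, held a run of at least 8 bases that were all C or T in 24 of the 62 genes (38.7%), against 13% of 27025 genes with an entry. The run was searched on the transcript strand alone. It could lie anywhere in the window, so it need not be a TOP tract at the first base. The annotated starts were not checked against starts used in the heart. The share is therefore not that of genes with a TOP tract. CCGGAA, which holds the GGAA core of ETS family sites, lay on either strand of the 300 bases around the start in 33 of the 62 (53.2%), against 16.7% of those 27025 genes. Read on the other strand this motif is TTCCGG, so its first 4 bases can overlap a pyrimidine run. Windows of 7 genes described in the following are shown 5′ to 3′ with their longest run of C and T in capitals, Rps6, Rps12, Rpl13a and Rplp2 because they hold a long run, Rpl9 and Rpl11 because they passed the test between the MI groups, and Rpl3l because it moved against the others.
Rps6, chr4:86857348-86857377, minus strand: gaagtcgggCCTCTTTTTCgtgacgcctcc
Rps12, chr10:23787190-23787219, minus strand: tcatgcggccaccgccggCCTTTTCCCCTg
Rpl13a, chr7:45128726-45128755, minus strand: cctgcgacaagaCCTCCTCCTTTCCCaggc
Rplp2, chr7:141447641-141447670, plus strand: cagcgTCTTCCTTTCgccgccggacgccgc
Rpl11, chr4:136053374-136053403, minus strand: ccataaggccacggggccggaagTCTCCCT
Rpl9, chr5:65391412-65391441, minus strand: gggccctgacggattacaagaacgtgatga
Rpl3l, chr17:24727816-24727845, plus strand: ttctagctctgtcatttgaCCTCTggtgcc
The longest run was 10 bases in Rps6, 11 in Rps12, 14 in Rpl13a and 10 in Rplp2. It was 7 bases in Rpl11 and 5 in Rpl3l, and in Rpl9, whose longest run was 4, none is marked. Another annotated start of Rpl3l, with a longest run of 4, is not shown, and Rpl3 had no entry.

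Libraries held 20623769 to 71855101 reads on genes. Reads on rRNA-related loci took 15.8% to 46.1% of a library and the ribosomal protein genes 0.376% to 1.29%. Values are normalized counts, in which the reads of a gene are divided by a DESeq2 size factor for that library, and log2 fold changes are differences of log2(normalized count + 1). Pkm, whose row sums both isoforms and so does not check the exon 10 deletion, had 9602 and 9108 normalized counts in PKM2fl/fl baseline hearts and 11981 and 12984 in PKM2-/- baseline hearts. After sham surgery Pkm had 7779, 9444 and 8764 in PKM2fl/fl and 11710, 14242 and 13199 in PKM2-/- hearts, and after MI 12076, 9576 and 10560 against 16113, 11549 and 10120. The genotypes overlapped after MI only, and Pkm passed the test in no comparison of genotypes (0.59 after sham surgery, adjusted p = 0.174, limma). The cardiomyocyte markers that define the tissue were high throughout, with a sum over 12 genes of 337377 normalized counts or more in each library. In whole tissue, fewer cells of a type and less RNA per cell cannot be told apart.

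Rpl3 and Rpl3l moved in opposite directions after MI in both genotypes, and no other tested ribosomal protein gene changed as far downwards as Rpl3l. Rpl3 (chromosome 15, 80077781 to 80083406, mm10) had 1114 and 1245 normalized counts in PKM2fl/fl baseline hearts, 2453, 1936 and 1214 after sham surgery and 3912, 2726 and 4100 after MI. In PKM2-/- hearts it had 1101 and 1292 at baseline, 1458, 1426 and 2038 after sham surgery and 4382, 5250 and 5395 after MI. All MI hearts lay above all sham hearts of their genotype, and the rise was 0.97 ± 0.22 (log2 fold change ± SE, adjusted p = 0.0018) in PKM2fl/fl and 1.62 ± 0.22 (adjusted p = 1.73e-05) in PKM2-/- hearts, by limma with p-values adjusted after Benjamini and Hochberg over all genes tested.

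Rpl3l (chromosome 17, 24727826 to 24736143, mm10), the muscle paralog, had 3808 and 3406 normalized counts in PKM2fl/fl baseline hearts, 3152, 4018 and 4154 after sham surgery and 1142, 1407 and 299.97 after MI. In PKM2-/- hearts it had 3622 and 3858 at baseline, 3194, 3887 and 3749 after sham surgery and 524, 496 and 519 after MI. The MI hearts were below all sham hearts in both genotypes, and the third PKM2fl/fl MI heart, at 299.97, was the lowest of the 16. Rpl3l fell by 2.25 (SE 0.37, adjusted p = 0.000152) in PKM2fl/fl and by 2.81 (SE 0.37, adjusted p = 1.49e-05) in PKM2-/- hearts on the log2 scale (limma).

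**Figure D1:**
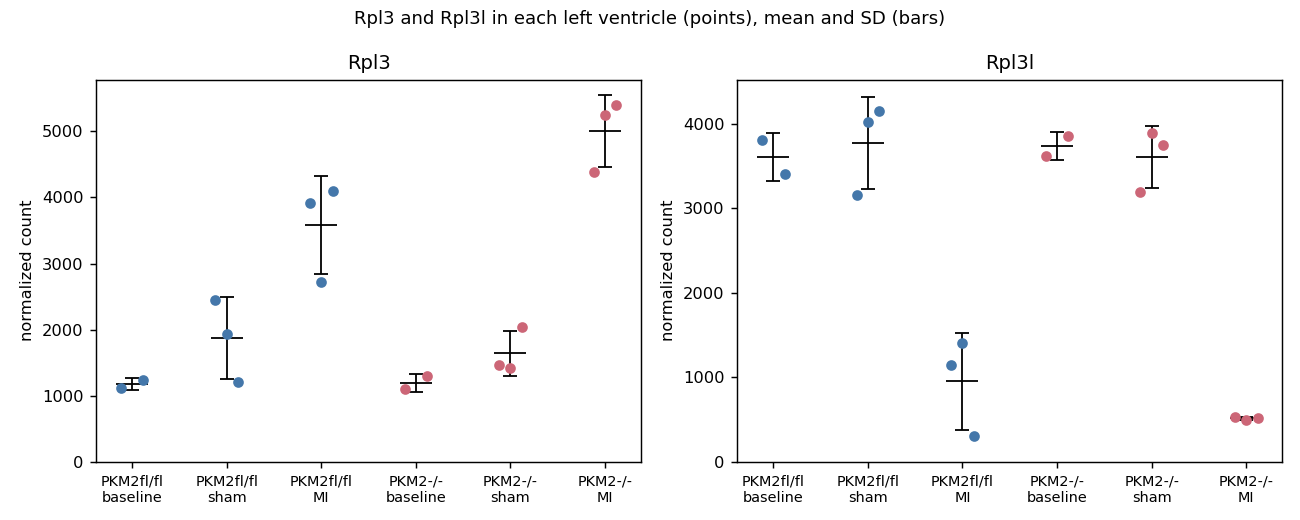
Normalized counts of Rpl3 (left) and Rpl3l (right) on linear axes for each of the 16 left ventricles, grouped by genotype and treatment; points are hearts and bars are the mean and SD. Rpl3 was highest and Rpl3l lowest in the MI hearts, where Rpl3l lay between 496 and 524 in PKM2-/- and between 299.97 and 1407 in PKM2fl/fl hearts.

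Divided by the length of the main transcript (1355 bases for Rpl3, 1420 for Rpl3l), Rpl3l made up 72.3% to 76.5% of the pair in PKM2fl/fl baseline hearts and 74.0% to 75.8% in PKM2-/- baseline hearts. After sham surgery its share was 55.1%, 66.4% and 76.6% in PKM2fl/fl and 67.6%, 72.2% and 63.7% in PKM2-/- hearts. After MI it was 21.8%, 33.0% and 6.53% in PKM2fl/fl hearts and 10.2%, 8.27% and 8.41% in PKM2-/- hearts. Rpl3l was the major member of the pair in every unoperated and sham heart and the minor member in every MI heart. The shares of sham and MI hearts did not overlap (exact permutation test, two-sided, p = 0.1 in each genotype, the smallest p that 3 hearts against 3 allow). Between the genotypes the MI shares overlapped (mean 8.97% in PKM2-/- against 20.4% in PKM2fl/fl, exact permutation p = 0.4, two-sided).

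The sum of the pair per kilobase changed less than either gene. It was 4030, 4258 and 3821 in PKM2fl/fl sham hearts against 3692, 3003 and 3237 after MI, and 3326, 3790 and 4144 in PKM2-/- sham hearts against 3603, 4224 and 4348 after MI. The PKM2fl/fl MI hearts lay below the sham hearts (exact permutation p = 0.1, two-sided), and the PKM2-/- groups overlapped (exact permutation p = 0.4, two-sided).

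Cardiomyocyte markers fell with Rpl3l. Their sum was 1728318 to 1867060 normalized counts in PKM2fl/fl sham hearts and 739586, 746027 and 338790 after MI, and 1508445 to 1846566 against 439103, 356315 and 337377 in PKM2-/- hearts. Per 100000 counts of these markers, Rpl3l was 210 ± 29.9 (SD, n = 3) in PKM2fl/fl sham hearts and 144 ± 50.9 after MI, which overlapped (exact permutation p = 0.2, two-sided). In PKM2-/- hearts it was 215 ± 6.23 after sham surgery and 137 ± 17.4 after MI (n = 3 each) with no overlap (exact permutation p = 0.1, two-sided). Divided by Myh6, which is among these markers, Rpl3l overlapped between sham and MI hearts in both genotypes. In PKM2-/- hearts this ratio was 0.0104, 0.00913 and 0.0112 after sham surgery and 0.00782, 0.00987 and 0.0105 after MI. The part of the fall in cardiomyocyte markers in that of Rpl3l was not tested beyond these ratios.

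Over the 16 libraries, log2 Rpl3 and log2 Rpl3l had a Pearson correlation of -0.90, as a description of libraries that share 6 groups. The ribosomal protein genes whose pattern was most like that of Rpl3 were Rpsa (0.968), Rpl12 (0.96) and Rps12 (0.96). Of all genes tested, those most like Rpl3 were Il17ra, Gm2245 and Fyb (each 0.973), Lcp2 (0.971) and H19 (0.969). Rpl3l had no close counterpart among the ribosomal protein genes (highest 0.39, Rpl36). Among all tested genes Rpl3l was most like Hrc, a calcium-binding protein of the sarcoplasmic reticulum, at 1.00 (0.996). Dnajc28, Macrod1, Fkbp4 and Fndc5 followed, each at 0.99. The elongation factor genes Eef1a1 and Eef1a2, another ubiquitous and muscle pair, had a correlation of -0.94. Eef1a1 rose by 1.49 (SE 0.17, adjusted p = 5.38e-06) in PKM2fl/fl and by 1.59 (SE 0.17, adjusted p = 1.90e-06) in PKM2-/- hearts after MI (limma). Eef1a2 fell by 1.55 (SE 0.26, adjusted p = 0.000138) and by 1.85 (SE 0.26, adjusted p = 2.04e-05) (limma).

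Of the other members, few changed after MI in PKM2fl/fl hearts. Of the 84 genes, 82 passed the filter of a mean normalized count of at least 10 and were tested; Rpl10l was at 0 in every library and Rpl39l reached at most 12.4. MI against sham in PKM2fl/fl gave 13 of the 82 higher, against 24.8% of all 20576 genes tested, and 6 lower, against 25.3%. Both shares, 15.9% and 7.32%, were below those of all genes. Groups did not overlap, with MI higher, in 22 of the 82, against 30% of all genes. The only fall of at least 2-fold among them was that of Rpl3l, against 11.1% of all genes, and no member rose as far. Over the 82 genes the log2 fold changes had a median of 0.14, beside -0.003 (-0.00254) over all genes, and it was -0.04, with 1 gene higher and 2 lower, when libraries were scaled to their total reads, a scaling that moved the median of all genes to -0.17.

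Rps12, a small subunit protein, had 1704, 1943 and 1340 normalized counts in PKM2fl/fl sham hearts and 2557, 2644 and 3266 after MI. Rpl12, which sits at the base of the stalk where translation factors bind, had 2805, 3086 and 2319 against 4047, 3482 and 4357. Rpsa, a small subunit protein that also serves as a laminin receptor, had 5742, 5616 and 4958 against 7984, 7028 and 8096. In these 3 genes every MI heart was above every sham heart. The log2 fold changes were 0.77 for Rps12 (SE 0.17, adjusted p = 0.00123), 0.54 for Rpl12 (SE 0.15, adjusted p = 0.00609) and 0.50 for Rpsa (SE 0.13, adjusted p = 0.00479) by limma. The other genes that rose, besides Rpl3, were Rps26 (0.61), Rpl10a (0.53), Rpl17 (0.50), Rpl10 (0.49), Rpl36al (0.48), Rpl6 (0.39), Rpl19 (0.38), Rpl15 (0.34) and Rpl4 (0.32), all structural proteins of the 2 subunits.

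Rpl36 fell most after Rpl3l, from 2432, 2691 and 2399 normalized counts in PKM2fl/fl sham hearts to 1841, 1733 and 1422 after MI (log2 fold change -0.60, SE 0.12, adjusted p = 0.000815, limma). Rps2, which lines the mRNA entry channel, had 3827, 4803 and 3512 against 2450, 3251 and 2697. Rps29 had 3957, 4568 and 3563 against 3232, 2968 and 2576. The groups did not overlap in these 3 genes, and the latter 2 fell by 0.53 (SE 0.16, adjusted p = 0.0131) and 0.46 (SE 0.13, adjusted p = 0.00948) by limma. Rps21 (-0.43) and Rplp2 (-0.29) were the other 2 called lower. These counts leaned on single hearts: without the third PKM2fl/fl sham heart, 7 genes were higher and 10 lower with a median of 0.04, and without the second sham heart 15 were higher and 2 lower with a median of 0.23.

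In PKM2-/- hearts MI against sham gave 68 of the 82 genes higher, against 28.7% of all genes, and 1 lower, Rpl3l, against 28.1%. The median log2 fold change was 0.56, beside 0.01 over all genes, and 81 of the 82 were above 0. MI hearts lay above all sham hearts in 66 of the 82, against 31.7% of all genes. With the main scaling 6 of the 68 rose by at least 2-fold (Rpl6l, Rpl3, Rps12, Rpl12, Rps27a and Rpl36a), against 14.5% of all genes. With Rpl3l, 7 genes changed by at least 2-fold, and this count was 52 when libraries were scaled to total reads, where the median over all genes was 0.52, 29 with total reads outside rRNA-related loci, and 13 without the third PKM2-/- sham heart. The large subunit had 44 of 50 tested genes higher and the small subunit 24 of 32.

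Rps27a, which encodes a small subunit protein fused to ubiquitin, had 1016, 949 and 1091 normalized counts in PKM2-/- sham hearts and 2102, 2123 and 2196 after MI. Rpl36a, a large subunit protein encoded on the X chromosome, had 934, 831 and 1111 against 1790, 1997 and 2047. Rps12 had 1510, 1178 and 1958 against 3282, 3637 and 3752. All PKM2-/- MI hearts lay far above all sham hearts for these genes, with log2 fold changes of 1.07 for Rps27a (SE 0.12, adjusted p = 2.71e-06), 1.03 for Rpl36a (SE 0.13, adjusted p = 9.08e-06) and 1.23 for Rps12 (SE 0.17, adjusted p = 1.65e-05) by limma. Rpl12 had 2569, 1887 and 2886 against 5192, 5102 and 5322, and rose by 1.11 (SE 0.15, adjusted p = 1.23e-05, limma). Rps18, which had 2527, 1926 and 2510 against 4382, 4184 and 4406, rose by 0.91 (SE 0.12, adjusted p = 1.36e-05, limma). The pseudogene Rpl6l, with 1 to 26 reads in any library, had 1.61, 1.31 and 6.47 against 21.1, 10.8 and 18.8 (log2 fold change 2.28, SE 0.51, adjusted p = 0.00142, limma).

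Besides Rpl3l, 13 of the 82 tested genes were not called higher in PKM2-/- hearts. The lowest log2 fold changes among them were 0.02 for Rps4l, 0.10 for Rpl24 and Rpl36, 0.11 for Rps27 and 0.15 for Rps13. Without the second PKM2-/- sham heart, in which 79 of the 82 genes had their lowest value of the group, 53 genes were higher and 1 lower with a median of 0.41. Without the third sham heart, the highest of the group in 71 genes, 74 were higher with a median of 0.68.

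Set side by side, the log2 fold change was larger in PKM2-/- than in PKM2fl/fl hearts in 80 of the 82 genes, Rpl3l and Rps4l being the exceptions. The 13 genes higher in PKM2fl/fl hearts were all higher in PKM2-/- hearts, and 53 more were called higher in PKM2-/- and not called in PKM2fl/fl hearts. Rps21 and Rplp2 passed the test in opposite directions. Rps21, a small subunit protein, had 2076, 2011 and 1623 normalized counts in PKM2fl/fl sham hearts and 1399, 1424 and 1402 after MI. In PKM2-/- hearts it had 1506, 1258 and 1697 after sham surgery and 1688, 2118 and 2070 after MI. It fell by 0.43 (SE 0.13, adjusted p = 0.0141) in the former and rose by 0.40 (SE 0.13, adjusted p = 0.0171) in the latter (limma), where the lowest MI heart was just below the highest sham heart.

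**Figure D2:**
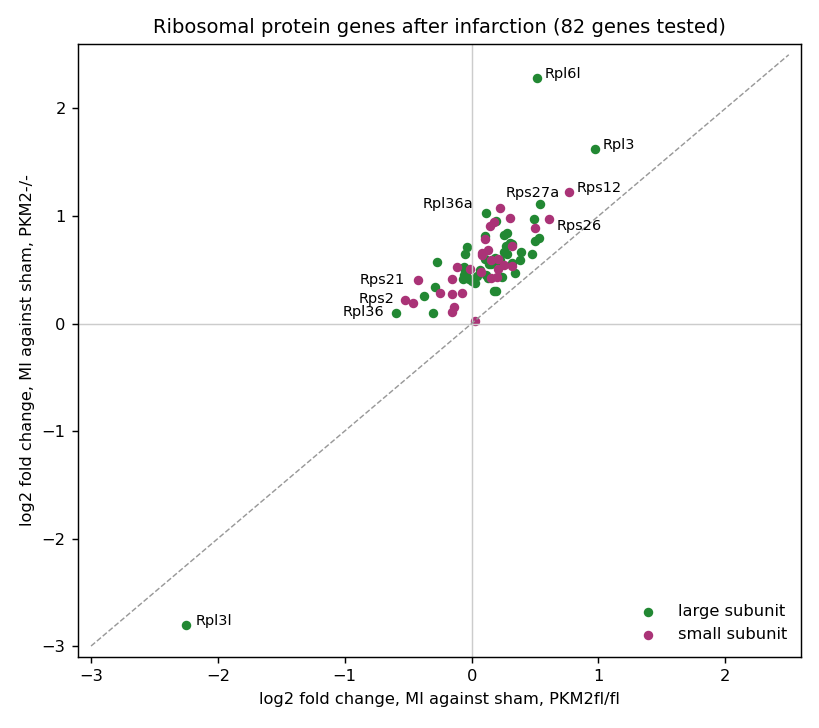
Log2 fold change of the 82 tested ribosomal protein genes after MI against sham in PKM2fl/fl hearts (horizontal axis) and in PKM2-/- hearts (vertical axis), with the line of equal change dashed; points are genes, coloured by subunit. All but 2 points lie above the line, Rpl3 at 0.97 and 1.62 and Rpl3l at -2.25 and -2.81.

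The difference between these responses was tested by an interaction term in the fit of all 16 libraries. None of the 82 genes passed (adjusted p of 0.203 or more, limma), and neither did any of all 20576 genes, so percent called was 0. At an unadjusted p under 0.05 there were 45 of the 82, all with the more positive change in PKM2-/- hearts, against 4.17% of all genes in that direction. The median interaction was 0.43 on the log2 scale, beside -0.01 over all genes. The smallest p belonged to Rpl11 (0.75, SE 0.15), Rps27a (0.85, SE 0.17), Rpl9 (0.85, SE 0.17) and Rpl36a (0.91, SE 0.18), with adjusted p of 0.203 each by limma. DESeq2 on the recovered reads called 7 of the 82, and limma called 8 without the third PKM2fl/fl MI heart and 1 without the third PKM2fl/fl sham heart. The median interaction was 0.29 without the second PKM2-/- sham heart. The percentage of reads on rRNA-related loci also varied between libraries. It was 22.9%, 15.8% and 27.8% in PKM2fl/fl sham hearts and 43.9%, 19.9% and 44.8% after MI, against 28.7%, 29.5% and 46.1% in PKM2-/- sham hearts and 16.1%, 31.1% and 34.5% after MI. At baseline it was 17.3% and 22.1% in PKM2fl/fl and 43.9% and 39.8% in PKM2-/- hearts, and it overlapped between sham and MI hearts of each genotype. Its part in the ribosomal protein values was not tested beyond the scaling without these loci, under which the median interaction was 0.66, beside 0.22 over all genes.

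The 2 MI groups were also compared directly. PKM2-/- MI hearts were above PKM2fl/fl MI hearts in 79 of the 82 genes by log2 fold change, and in 62 the 3 hearts of each group did not overlap, against 10.7% of all genes. The median was 0.26, beside -0.004 (-0.00351) over all genes. Past the test were 2 genes, Rpl9 and Rpl11, both higher, against 0.394% of all genes, and 36 of the 82 had an unadjusted p under 0.05, all higher, against 7.94%.

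Rpl9, a large subunit protein, had 2207, 2519 and 2270 normalized counts in PKM2fl/fl MI hearts and 3537, 3320 and 3584 in PKM2-/- MI hearts (log2 fold change 0.58, SE 0.12, adjusted p = 0.0365, limma). Rpl11, which with Rpl5 and 5S rRNA forms a particle that can also bind the p53 regulator Mdm2, had 2648, 2863 and 2515 against 3855, 3600 and 3683 (0.47, SE 0.10, adjusted p = 0.0474, limma). In both genes the groups were well apart. Rps27a (0.51, adjusted p = 0.054) and Rpl36a (0.55, adjusted p = 0.0565) lay just short of the threshold by limma. Rps2 had the largest difference at 0.63 (adjusted p = 0.0703, limma). Rpl3l, at -0.61, was lowest but did not pass (SE 0.37, adjusted p = 0.429, limma). Without the third PKM2fl/fl MI heart it was -1.30 and passed (adjusted p = 5.33e-05, limma).

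The count of 2 was unstable. It was 0 without any 1 of the first PKM2fl/fl sham heart, the first or second PKM2fl/fl MI heart, either PKM2-/- baseline heart or any of the 3 PKM2-/- MI hearts. It was 1 without either PKM2fl/fl baseline heart, the second PKM2fl/fl sham heart or the first PKM2-/- sham heart, and 3 without the third PKM2fl/fl sham heart. It was 9 without the second PKM2-/- sham heart and 14, of which 13 higher, without the third PKM2fl/fl MI heart. With the replicate number as a block it was 0.

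The summed normalized count of the 84 genes shows where the MI groups parted. It was 253251, 245479 and 250083 in PKM2fl/fl MI hearts and 297235, 298876 and 308961 in PKM2-/- MI hearts. The sham sums were 235408, 254617 and 201350 in PKM2fl/fl and 205683, 168596 and 241527 in PKM2-/- hearts, and the baseline sums 196128 and 174746 against 184761 and 183236. The 3 PKM2-/- MI hearts were the highest of the 16, while the PKM2fl/fl MI hearts overlapped their sham hearts. Of the cardiomyocyte markers none was called between these MI groups, all 12 log2 fold changes being below 0 in PKM2-/- against PKM2fl/fl (median -0.44), and their sums overlapped. Leukocyte markers were at 26833 to 46422 summed normalized counts in PKM2fl/fl and 37768 to 42958 in PKM2-/- MI hearts, 13 of 15 log2 fold changes being above 0 and 0 called. The part of these markers in the ribosomal protein sums was not tested.

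**Figure D3:**
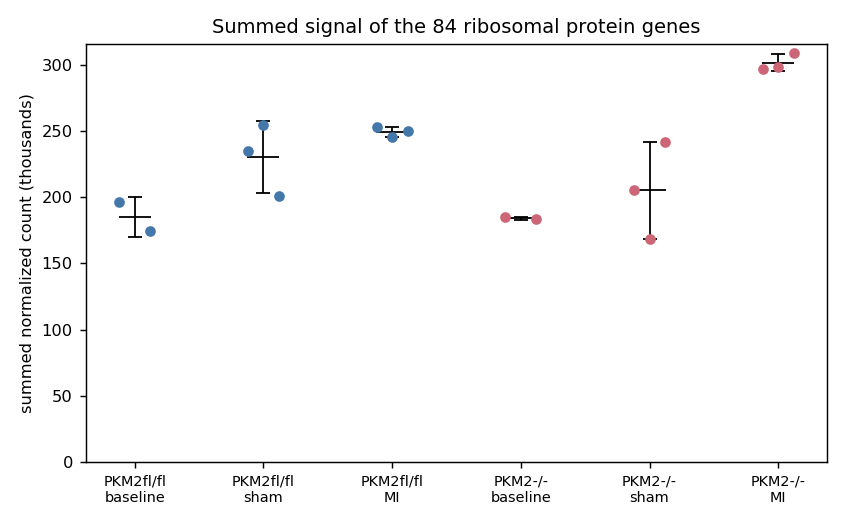
Summed normalized count of the 84 ribosomal protein genes on a linear axis from 0, for each left ventricle by group; points are hearts and bars are the mean and SD. The PKM2-/- MI hearts sit between 297235 and 308961 and the next highest heart, of the PKM2fl/fl sham group, at 254617.

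No difference between the genotypes passed the test in unoperated or sham hearts. At baseline 0 of the 82 genes passed (adjusted p of 1 throughout, limma), against 0.00972% of all genes, and 1 had an unadjusted p under 0.05, Rpl32l, against 3.64% of all genes. The median was -0.01. Each group had 2 hearts here. The 95% interval of a gene such as Rpl3 (log2 fold change 0.02, SE 0.27) ran from -0.51 to 0.55. It was computed from a normal distribution, and an interval from limma's t distribution would be wider. After sham surgery 0 genes passed (limma), against 0.00972% of all genes, and 18 had an unadjusted p under 0.05, all lower in PKM2-/- hearts, against 4.48% of all genes in that direction. DESeq2 and edgeR also called 0 in both comparisons.

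All 82 log2 fold changes between the sham groups were below 0, with a median of -0.17. Rps29 had the smallest p, with 3957, 4568 and 3563 normalized counts in PKM2fl/fl sham hearts and 2907, 2406 and 3551 in PKM2-/- sham hearts (-0.46, SE 0.13, adjusted p = 0.22, limma). The ventricles came close to each other there, the highest PKM2-/- value lying just under the lowest PKM2fl/fl value. The median was -0.03 without the second PKM2-/- sham heart, -0.09 without the second PKM2fl/fl sham heart, -0.26 without the third PKM2fl/fl sham heart and -0.30 without the third PKM2-/- sham heart, when 1 gene was called lower. These sham values also enter the MI response, so a low PKM2-/- sham group and a high PKM2-/- MI group both add to the interaction.

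The ribosomal protein genes moved together within the sham groups. The third PKM2fl/fl sham heart had the lowest value of its group in 75 of the 82 genes and the second the highest in 67, with median log2 deviations from the group mean of -0.19 and 0.16. In the PKM2-/- sham group these deviations were -0.28 for the second and 0.25 for the third heart. In the MI groups the median deviations lay between -0.02 and 0.03. The PKM2fl/fl sham hearts kept the same order in leukocyte markers (10577, 13130 and 6284 summed normalized counts) as in ribosomal protein sums, whereas the PKM2-/- sham hearts (11135, 9043 and 10570) did not in their 2 higher hearts. The part of leukocyte RNA in this spread was not tested.

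Sham and unoperated hearts overlapped in their ribosomal protein sums, the second PKM2-/- sham heart lying below all 4 unoperated hearts. Comparing sham with baseline over both genotypes gave 81 of 82 log2 fold changes above 0 with a median of 0.24, and 44 genes with an unadjusted p under 0.05 in that direction against 12.1% of all genes. Only Rpl32l passed, against 4.52% of all genes called higher. Rpl32l had 4.71, 9.29, 3.50 and 0 normalized counts in the 4 baseline hearts and 8.81, 30.8, 11.8, 12.9, 13.1 and 7.55 in the 6 sham hearts, which overlapped (1.77, SE 0.45, adjusted p = 0.0292, limma). Without the second PKM2-/- sham heart 22 genes were called, without the third PKM2fl/fl sham heart 9, and without the third PKM2fl/fl MI heart 2. The count was 0 without either PKM2fl/fl baseline heart, the second PKM2fl/fl sham heart, the second PKM2-/- baseline heart or the first PKM2-/- sham heart. DESeq2 called 8. Rpl3, at 0.52 (SE 0.17, adjusted p = 0.0924, limma), did not pass, and Rpl3l was at 0.00 (SE 0.30).

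**Figure D4:**
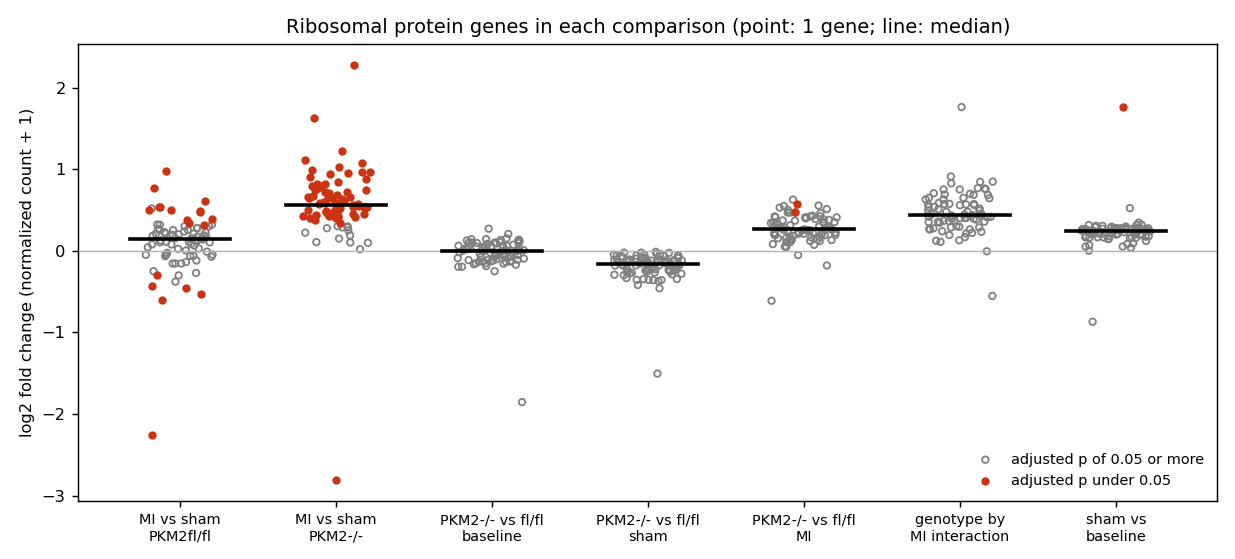
Log2 fold changes of the 82 tested ribosomal protein genes in each of the 7 comparisons; each point is a gene, filled where limma's adjusted p was under 0.05, and lines mark medians. Filled points are frequent for MI against sham in PKM2-/- hearts (69 genes), fewer in PKM2fl/fl hearts (19) and at most 2 elsewhere.

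Members with a particular role mostly followed the rest. The acidic stalk, which recruits elongation factors, is built of Rplp0, Rplp1 and Rplp2. Rplp0 had 11132, 11944 and 9148 normalized counts in PKM2fl/fl sham hearts and 11745, 11747 and 11486 after MI, and 9683, 8360 and 11722 against 13975, 12746 and 12971 in PKM2-/- hearts. Rplp1 had 5603, 5949 and 4456 against 5910, 5771 and 5458, and 4577, 3350 and 4620 against 7173, 7301 and 7355. Both overlapped in PKM2fl/fl hearts (0.13, adjusted p = 0.445, and 0.11, adjusted p = 0.506) and rose without overlap in PKM2-/- hearts (0.43, adjusted p = 0.0117, and 0.81, adjusted p = 6.76e-05) by limma. Rplp2 had 2322, 2563 and 2076 against 2090, 1834 and 1761 in PKM2fl/fl hearts and 1987, 1706 and 2003 against 2431, 2356 and 2396 in PKM2-/- hearts. It thus fell in the former by 0.29 (SE 0.11, adjusted p = 0.0406) and rose in the latter by 0.34 (SE 0.11, adjusted p = 0.017) (limma). Differences between the stalk genes were not tested.

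Rps6, the ribosomal protein phosphorylated by S6 kinase, had 2582, 2699 and 2011 normalized counts in PKM2fl/fl sham hearts and 2942, 2725 and 3398 after MI, just above all sham hearts, which did not pass (0.32, adjusted p = 0.0909, limma). In PKM2-/- hearts it had 2264, 1950 and 3027 against 3492, 3294 and 3563 and rose by 0.54 (SE 0.15, adjusted p = 0.00648, limma). Rpl5, the partner of Rpl11, was at 0.14 (adjusted p = 0.358) in PKM2fl/fl and rose by 0.55 (adjusted p = 0.00102) in PKM2-/- hearts (limma). For Rpl11 itself the changes were -0.04 (adjusted p = 0.786) and 0.71 (adjusted p = 3.28e-05). Rpl13a, known as a translational silencer once released from the ribosome in myeloid cells, was at 0.28 (adjusted p = 0.0654) and 0.84 (adjusted p = 2.47e-05). Rps19, in which human mutations cause Diamond-Blackfan anaemia, was at 0.18 (adjusted p = 0.354) and 0.94 (adjusted p = 7.78e-05), and Rps3, which also takes part in DNA repair, at 0.08 (adjusted p = 0.582) and 0.64 (adjusted p = 0.000168), all by limma. Rps4x was at 0.21 (adjusted p = 0.125) and 0.50 (adjusted p = 0.00107, limma). Each of these passed in PKM2-/- hearts and not in PKM2fl/fl hearts, and none of their interactions passed.

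Of the other paralogs, Rps4l was at 0.02 (adjusted p = 0.921, limma) in PKM2-/- hearts after MI, with 236, 209 and 233 normalized counts in sham and 252, 207 and 229 in MI hearts. Rpl36a and Rpl36al, which encode nearly the same protein, had a correlation of 0.84 over the 16 libraries. Rpl36al had 424, 589 and 429 normalized counts in PKM2fl/fl sham hearts and 731, 633 and 626 after MI, and 424, 388 and 580 against 663, 824 and 671 in PKM2-/- hearts. It rose without overlap in both, by 0.48 (adjusted p = 0.022) and 0.65 (adjusted p = 0.00307), where Rpl36a was at 0.12 (adjusted p = 0.476) in PKM2fl/fl hearts (limma). Rps27l, a p53-induced paralog of Rps27, had a correlation of 0.69 with it. Neither passed in PKM2fl/fl hearts (-0.12 for Rps27l, adjusted p = 0.56, and -0.15 for Rps27, adjusted p = 0.489), and in PKM2-/- hearts Rps27l rose by 0.53 (adjusted p = 0.0104) while Rps27 was at 0.11 (adjusted p = 0.63) by limma. Rpl39l, a paralog known from testis, had reads in 9 of the 16 libraries and at most 14 in any of them, and the testis paralog Rpl10l had 0 reads in each library. Their ubiquitous partners rose in PKM2-/- hearts, Rpl39 by 0.95 (adjusted p = 2.60e-05) and Rpl10 by 0.97 (adjusted p = 4.74e-05, limma).

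Rpl22l1, a paralog of Rpl22 that the name rule leaves out, differed most between the MI groups among these paralogs. It had 580, 494 and 419 normalized counts in PKM2fl/fl sham hearts and 271, 406 and 412 after MI, and 487, 334 and 338 against 739, 727 and 733 in PKM2-/- hearts. It fell by 0.47 (SE 0.19, adjusted p = 0.0468) in the former and rose by 0.94 (SE 0.19, adjusted p = 0.000463) in the latter, and it was higher in PKM2-/- than in PKM2fl/fl MI hearts by 1.04 (SE 0.19, adjusted p = 0.0275) by limma. The interaction was 1.41 (SE 0.26, adjusted p = 0.18, limma). Rpl22 was at 0.03 (adjusted p = 0.86) and rose by 0.38 (adjusted p = 0.0119), with a correlation of 0.80 between both genes.

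Genes that make or use ribosomes were read beside the ribosomal proteins. Of 63 ribosome biogenesis genes, 29 were higher and 6 lower after MI in PKM2fl/fl hearts and 40 higher and 1 lower in PKM2-/- hearts, beside 24.8% and 28.7% of all genes called higher. Npm1, a nucleolar chaperone, had 2480, 2525 and 1879 normalized counts in PKM2fl/fl sham hearts and 3600, 3750 and 3912 after MI, and 2026, 1875 and 2152 against 4675, 4521 and 5292 in PKM2-/- hearts. It rose without overlap by 0.72 (SE 0.11, adjusted p = 0.000104) and 1.26 (SE 0.11, adjusted p = 5.77e-07) by limma. Heatr1, needed for transcription and processing of pre-rRNA, rose by 0.82 and 1.01, Nop58, a core protein of box C/D particles, by 0.74 and 1.14, and Eif6, which keeps free large subunits from joining, by 0.65 and 1.41.

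Of 23 other genes with TOP mRNAs, mostly translation factors, 6 were higher and 5 lower after MI in PKM2fl/fl and 10 higher and 3 lower in PKM2-/- hearts, beside 24.8% and 25.3% of all genes in the former, which is near the share in this list, and 28.7% and 28.1% in the latter. Pabpc1, the poly(A)-binding protein, rose by 1.46 (SE 0.09, adjusted p = 4.40e-08) and 1.76 (SE 0.09, adjusted p = 1.32e-08) by limma. The 5 that fell in PKM2fl/fl hearts, named after their values were seen, were Naca (-0.84), Eif4a2 (-0.67), Ybx1 (-0.53), Eef1d (-0.42) and Eif3m (-0.39), and Naca (-1.15), Eif4a2 (-0.73) and Ybx1 (-0.39) fell in PKM2-/- hearts. Of 12 ribosomal genes outside the rule, 1 of which is the member Rps4l, 1 was higher and 1 lower in PKM2fl/fl and 6 higher and 1 lower in PKM2-/- hearts, beside 24.8% and 28.7% of all genes called higher. Rack1, the scaffold protein of the small subunit, rose by 0.61 (adjusted p = 0.00101) and 0.82 (adjusted p = 5.82e-05, limma). Fau, which encodes Rps30 fused to a ubiquitin-like protein, was at 0.10 (adjusted p = 0.533) and rose by 0.74 (adjusted p = 0.000121, limma).

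Mitochondrial ribosomal protein genes went the other way. Of 77 tested, 66 were lower and 0 higher after MI in PKM2fl/fl hearts, and 61 lower and 1 higher in PKM2-/- hearts, beside 25.3% and 28.1% of all genes called lower. Mrps35 had 1384, 1342 and 1376 normalized counts in PKM2fl/fl sham hearts and 623, 643 and 446 after MI, and 1249, 1217 and 1449 against 547, 453 and 443 in PKM2-/- hearts. It fell without overlap by 1.28 (SE 0.13, adjusted p = 2.05e-06) and 1.44 (SE 0.13, adjusted p = 4.87e-07) by limma. Their summed normalized count ranged from 58760 to 75691 over the 6 sham hearts and from 32740 to 42106 over the 6 MI hearts, in the same direction as the cardiomyocyte markers, of which 11 of 12 fell in PKM2fl/fl and 12 of 12 in PKM2-/- hearts. The share of cardiomyocyte RNA in that fall was not tested.

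Of 14 tested genes that control ribosome synthesis, 2 were higher and 4 lower in PKM2fl/fl and 3 higher and 4 lower in PKM2-/- hearts, few genes and near the shares of all genes for the lower calls (25.3% and 28.1%). Myc, which drives ribosomal RNA and protein gene transcription, had 62.9, 74.9 and 63.2 normalized counts in PKM2fl/fl sham hearts and 586, 275 and 540 after MI, and 103, 141 and 142 against 739, 505 and 452 in PKM2-/- hearts. It rose by 2.71 (SE 0.28, adjusted p = 2.23e-06) and 2.11 (SE 0.28, adjusted p = 1.26e-05), and Mtor, the kinase that controls the translation of TOP mRNAs, fell by 0.38 (adjusted p = 0.0164) and 0.57 (adjusted p = 0.000862) by limma. The MI groups of the 2 genotypes overlapped in both genes.

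**Figure D5:**
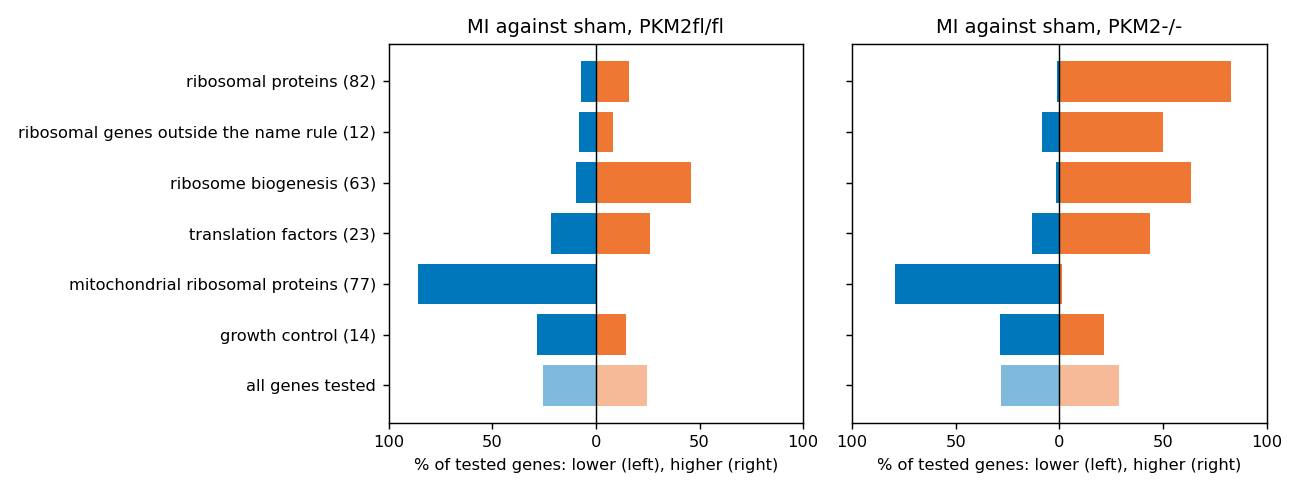
Share of tested genes called lower (left of 0) or higher (right of 0) after MI against sham, in percent, for ribosomal proteins, related gene lists and all genes tested, in PKM2fl/fl (left panel) and PKM2-/- hearts (right panel); the number tested stands in brackets. Ribosomal proteins were called higher in 15.9% and 82.9%, against 24.8% and 28.7% of all genes.

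Cell-type markers changed with infarction in both genotypes. Leukocyte markers were higher in 12 of 15 tested, fibroblast markers in 6 of 8 and cell division markers in 10 of 10, the same counts in PKM2fl/fl and PKM2-/- hearts, and 0, 1 and 0 were lower. Summed leukocyte markers were 6284 to 13130 over the sham hearts and 26833 to 46422 over the MI hearts, fibroblast markers 25357 to 46994 against 143683 to 198375, and cell division markers 695 to 1301 against 8526 to 12290. Endothelial markers were higher in 2 of 6 in both genotypes and lower in 0 and 1. Erythroid markers had 0 of 7 called, atrial markers 1 higher and 1 lower of 5, and of 6 adipocyte markers 1 was tested and not called. Of all genes tested, 24.8% in PKM2fl/fl and 28.7% in PKM2-/- hearts were called higher, and 25.3% and 28.1% lower. The higher calls of endothelial and atrial markers, from few genes, were near these shares. No listed marker of these types was at 0 in all libraries, and the part of the changed cell makeup in the ribosomal protein values was not tested.

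Per kilobase of the main transcript, levels of the 84 genes spanned a wide range in every group. Rplp1 was highest, with a mean of 9755 ± 1428 normalized counts per kilobase (SD, n = 3) in PKM2fl/fl sham hearts and 13302 ± 171 in PKM2-/- MI hearts. Rps29 followed in PKM2fl/fl sham hearts with 8092 ± 1016 and Rplp0 with 7869 ± 1054, which differ by less than their SD. Rpl3l was at rank 37 in PKM2fl/fl sham hearts with 2658 ± 383 and Rpl3 at rank 61 with 1378 ± 459. After MI in PKM2-/- hearts Rpl3 was at rank 38 with 3697 ± 404 and Rpl3l at rank 77 with 361 ± 10.48. Rps12 moved from rank 21 to rank 6 between PKM2-/- sham and MI hearts. At the low end in PKM2-/- MI hearts stood Rpl17 with 306 ± 7.89, Rps4l with 172 ± 16.9, and the rarely detected Rpl32l, Rpl6l, Rpl39l and Rpl10l.

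Reads of ribosomal protein mRNAs can also match their many processed pseudogenes, and how the counting treated strand and reads with several matches is not given in the sources used here. The 319 -ps rows, which are outside the 84 genes, summed to a normalized count that was 3.22% to 4.10% of the sum of the 84 in each library. Of 65 of them with a mean of at least 10, 4 were higher and 3 lower after MI in PKM2fl/fl hearts and 24 higher and 0 lower in PKM2-/- hearts, beside 24.8% and 25.3% of all genes in the former and 28.7% and 28.1% in the latter. Values of single members, and of Rpl36a and Rpl36al in particular, are uncertain to the extent that reads were shared.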

How the data were processed

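Left ventricles of 16 male mice were sequenced after rRNA depletion (NEBNext). Per the labels and the study's methods, the authors used PRINSEQ for trimming, HISAT2 for alignment (mm10), featureCounts for gene counts and DESeq2 for normalization. The deposited signal is the read count per gene divided by the library's size factor. The table also holds one comparison by the authors (mean, log2 fold change, SE, statistic, p and adjusted p) whose groups its header does not name, and which was not used. All nonzero values (100%) were whole reads after division by the step of the library (tolerance 0.05 reads), so the reads were recovered. Groups came from the sample labels. The members, gene lists, named genes and tests were chosen with earlier results of these data known.

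Normalized counts were tested with limma 3.58.1 (trend) in R 4.3.3 on log2(value + 1), with 6 groups over all 16 libraries, for 20576 genes with a mean of at least 10. P-values were adjusted by Benjamini-Hochberg over these genes, and an adjusted p under 0.05 was called. The text names members by role, the 5 with the smallest p in each direction and the 3 with the largest change per comparison, and up to 4 genes of other lists. In comparisons where at most 2 members passed, not all of the smallest-p members are named. Alternatives were edgeR 4.0.16, DESeq2 1.42.0 and limma-voom on recovered reads, other scalings, pseudocounts and filters, a replicate block, the compared libraries alone and each library left out. The fit was also run on simulated counts, with known changes in PKM2-/- MI libraries alone and the same dispersion for all genes. Shifts shared by many genes, as in the sham hearts, were not simulated. Libraries are labelled biological replicates. Deviations of same-numbered samples from their group means had a median correlation of -0.03 over 36 pairs (-0.20 to 0.13). With so few samples per group this cannot settle whether the numbers mark pairs. The main fit did not treat them as pairs, and a batch shared in another way was not tested. Lengths came from GENCODE vM39, promoters and gene types from RefSeq (GRCm38.p6). Python 3.11.15, pandas 2.3.3 and matplotlib 3.10.9 were used.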

Additional observations from a re-analysis of the deposited data

How the results depend on the processing

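The direction of Rpl3 and Rpl3l after MI and their calls held in both genotypes under all 27 alternatives, including DESeq2, edgeR, the replicate block and each library left out. The counts of ribosomal protein genes called were less stable. With libraries scaled to total reads, MI against sham in PKM2fl/fl hearts called 3 genes (1 higher, 2 lower) in place of 19, and PKM2-/- against PKM2fl/fl after MI called 0 in place of 2. That scaling moved the median of all genes by -0.17 in the former, 0.52 for MI against sham in PKM2-/- hearts, 0.36 for the latter and -0.59 between baseline hearts, where the medians of the 82 genes were -0.04, 1.07, 0.63 and -0.60. Total reads without rRNA-related loci, an alternative chosen after seeing the data, gave 22 higher and 2 lower in PKM2fl/fl and 79 higher and 1 lower in PKM2-/- hearts. PKM2-/- against PKM2fl/fl after MI called 4 with TMM scaling, 1 with edgeR, 16 with DESeq2, and 0 with no filter on low values, with the compared libraries alone and with the replicate block. The interaction called 7 with DESeq2 in place of 0. Sham against baseline called 8 with DESeq2 in place of 1 and 0 with a pseudocount of 0.1, at least 10 in every library, no filter on low values, the replicate block, the compared libraries alone, edgeR and limma-voom. The replicate block gave 13 higher and 6 lower in PKM2fl/fl and 68 higher and 1 lower in PKM2-/- hearts after MI, as without it. Leaving out each library in turn gave 14 to 27 calls for MI against sham in PKM2fl/fl, 54 to 75 in PKM2-/- hearts, 0 to 1 between sham groups, 0 to 14 between MI groups, 0 to 8 for the interaction and 0 to 22 for sham against baseline. Without the third PKM2fl/fl MI heart, Rpl3l also passed the interaction test (-1.25, adjusted p = 0.00328, limma), and without the third PKM2fl/fl sham heart Rpl3 passed in sham against baseline (0.66, adjusted p = 0.0107, limma), as it did with DESeq2 (0.56, adjusted p = 0.0271). The cause of these shifts was not tested. Read depth limits Rpl6l, Rpl32l, Rpl39l and Rpl10l, and 2 hearts per group limit the baseline comparison.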
